A study of Mus musculus with 10 samples.

Results

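The genes described here are 7 genes of antigen presentation by major histocompatibility complex (MHC) class II molecules: H2-Aa, H2-Ab1, H2-Eb1, Cd74, H2-DMa, H2-DMb1 and Ciita. They were chosen by gene symbol through their Ensembl identifiers, and all 7 were found among the 21939 genes of the deposited table and passed the filter on low counts that left 13641 genes for testing. The data were poly-A RNA sequencing libraries of freshly isolated mouse hepatocytes, 1 library per mouse, from 10 adult male mice. Their age was listed as 8 to 9 weeks, which may refer to the start of the experiment. All 10 mice received AAV8Cre, a viral vector in which the hepatocyte-specific thyroxine-binding globulin promoter drives Cre recombinase, and the livers were taken 12 days later. The 3 control mice were C57BL6/j animals with no floxed allele; the 2 Nrf2 KO mice were Nrf2 flox/flox, the 2 p65 KO mice were p65 flox/flox, and the 3 DKO mice carried both floxed genes. Nrf2 is a transcription factor of the antioxidant response, and p65 is a subunit of the transcription factor NF-κB. The comparison asked how loss of either gene, or of both, in hepatocytes changed the RNA of these preparations, which low-speed and Percoll centrifugation enrich for hepatocytes without removing every other liver cell.

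MHC class II molecules are pairs of an alpha and a beta chain that show peptides from taken-up protein to CD4+ T cells. They are made mainly by professional antigen-presenting cells such as dendritic cells, B cells and macrophages; in the liver, Kupffer cells, the resident macrophages, carry them, and hepatocytes normally make little. H2-Aa and H2-Ab1 encode the chains of I-A, H2-Eb1 encodes the beta chain of I-E, Cd74 encodes the invariant chain that guides class II molecules to the endosome, H2-DMa and H2-DMb1 encode the DM molecule that loads the peptide, and Ciita encodes the coactivator that switches the other genes on.

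Of the 7 genes, 5 lie in the MHC on chromosome 17 (GRCm39): H2-DMa at 34338515 to 34358958, H2-DMb1 at 34372046 to 34379204, H2-Ab1 at 34476663 to 34488393, H2-Aa on the minus strand at 34493404 to 34506798, and H2-Eb1 at 34504236 to 34535648. The annotated spans of H2-Aa and H2-Eb1 overlap at their ends on opposite strands, and whether the strand setting of the counting divided reads between them was not tested. Cd74 and Ciita lie outside the MHC, Ciita on chromosome 16 at 10297923 to 10347694. All 7 are annotated as protein-coding genes.

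Class II promoters are known for a conserved X box, bound by the RFX complex, followed by a Y box, bound by NF-Y, on which the Ciita protein assembles. RefSeq promoter windows (GRCm38.p6, 300 bases each) were matched for 4 of the 7 genes; H2-Ab1, Cd74 and Ciita were not matched. For the 3 genes with motif matches near the start, the 150 bases before the annotated start are shown. They run 5′ to 3′ on the strand of the gene, and all 3 hold a Y-box core. Capitals mark the X-box-like ACNGATG, the Y-box core TGATTGG and the cAMP response element TGACGTCA. The windows lie at chr17:34287824-34287973 (minus strand) for H2-Aa, chr17:34305717-34305866 (plus strand) for H2-Eb1 and chr17:34153041-34153190 (plus strand) for H2-DMb1.
H2-Aa: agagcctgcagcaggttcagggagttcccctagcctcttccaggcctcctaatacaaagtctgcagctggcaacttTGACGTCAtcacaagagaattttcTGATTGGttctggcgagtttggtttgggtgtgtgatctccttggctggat
H2-Eb1: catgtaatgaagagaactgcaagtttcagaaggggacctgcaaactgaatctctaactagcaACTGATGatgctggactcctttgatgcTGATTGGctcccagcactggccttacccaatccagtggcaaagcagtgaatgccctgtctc
H2-DMb1: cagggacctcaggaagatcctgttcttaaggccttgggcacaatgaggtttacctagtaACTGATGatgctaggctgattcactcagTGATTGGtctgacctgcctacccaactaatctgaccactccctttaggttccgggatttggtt

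In H2-Eb1 the X-box-like letters lay at -88 to -82 and the Y-box core at -61 to -55 relative to the start, 20 bases apart. In H2-DMb1 they lay at -91 to -85 and -63 to -57, 21 bases apart. H2-Aa had the Y-box core at -50 to -44 and the cAMP response element at -74 to -67. The only match to ACNGATG in its window lay on the opposite strand, at -232 to -226, outside the stretch shown. An X box of other letters near its Y-box core was not searched for. Both windows of H2-DMa held none of these motifs. Searched on both strands, ACNGATG was present in 9.85% of 32817 promoter windows of this length, TGATTGG in 7.8% and TGACGTCA in 1.79%. The pair in this order with a gap of 15 to 25 bases was present in 8 windows, or 0.0244%. Among those 8 were H2-Eb1, H2-DMb1 and their relatives H2-Eb2 and H2-DMb2, and the others were BC051142, Gm16958, Gm52728 and Gmnc. The motifs and the gap were set after these sequences had been seen, and a match is a description of the letters only.

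The 10 libraries held 33707165 to 49897382 estimated counts. Values below are normalized counts, that is, counts divided by each library's scaled size relative to the mean of all libraries, and libraries are given in the order of their replicate numbers. In the knockout check, Nfe2l2, which encodes Nrf2, stood at 1990 to 2318 normalized counts in the control libraries and at 4739 and 5005 in Nrf2 KO, and Rela, which encodes p65, stood at 1221 to 1276 in control and at 1183 and 1209 in p65 KO. In DKO, Nfe2l2 stood at 3434 to 5240, and in p65 KO at 1993 and 1997. It was called higher than control in Nrf2 KO and DKO, and the reason was not tested. Rela was called in no comparison, and stood at 1034 to 1488 in DKO. These are totals over whole genes, in which deleted exons cannot be seen. They do not measure the deletions, and Rela does not check the p65 labels. The hepatocyte markers were abundant in every library, with a summed level of 3434130 to 5441200 normalized counts over 9 markers, including Alb and Apoa1.

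MHC class II genes were low in control hepatocytes, overlapped with control in the Nrf2 KO, and were far higher in the p65 KO, with the DKO in between. The 7 genes together had 118, 266 and 220 normalized counts in the control libraries, 223 and 157 in Nrf2 KO, 4662 and 3672 in p65 KO, and 1902, 1897 and 857 in DKO. The p65 KO and DKO libraries did not overlap with each other or with the other genotypes in this sum.

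**Figure D1:**
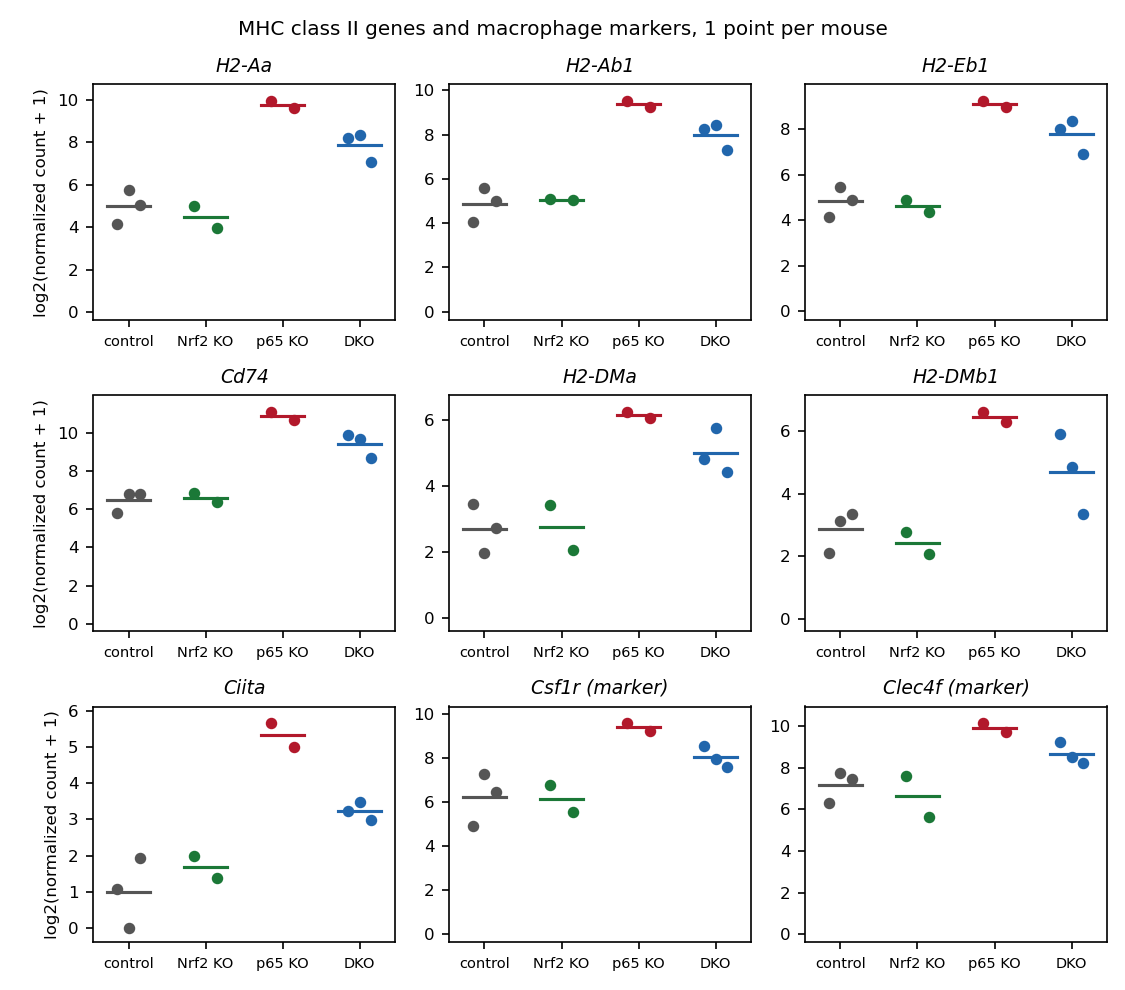
Each panel plots log2(normalized count + 1) of 1 gene, with 1 point per mouse and a bar at the mean of the points of each genotype; Csf1r and Clec4f are macrophage markers. For all 7 class II genes both p65 KO points lie above every other point and DKO replicate 3 is the lowest DKO point; the DKO points lie between p65 KO and control except for H2-DMb1, where DKO replicate 3 overlaps with control.

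The classical chains moved together. H2-Aa stood at 16.6, 53.1 and 31.8 normalized counts in control, 30.6 and 14.5 in Nrf2 KO, 972 and 785 in p65 KO, and 296, 321 and 134 in DKO. H2-Ab1, its beta-chain partner in I-A, stood at 15.5, 47.2 and 30.8 in control, 32.6 and 32.3 in Nrf2 KO, 725 and 603 in p65 KO, and 308, 344 and 157 in DKO. For both chains every p65 KO library was above every DKO library, and every DKO library above every control and Nrf2 KO library. Relative to control, H2-Aa rose by 4.68 on the log2 scale in p65 KO (standard error 0.45, adjusted p = 0.000636, edgeR quasi-likelihood test) and by 2.87 in DKO (standard error 0.42, adjusted p = 0.00429). H2-Ab1 rose by 4.40 (standard error 0.39, adjusted p = 0.000593) and by 3.10 (standard error 0.37, adjusted p = 0.00149), respectively.

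The I-E beta chain gene H2-Eb1 stood at 16.6, 43.3 and 29.0 normalized counts in control, 28.7 and 19.4 in Nrf2 KO, 596 and 506 in p65 KO, and 259, 329 and 120 in DKO. It had the same order of genotypes, without overlap between p65 KO, DKO and control, and rose by 4.20 on the log2 scale in p65 KO (standard error 0.42, adjusted p = 0.000636) and 2.98 in DKO (standard error 0.40, adjusted p = 0.00302). H2-Ea, the gene of its alpha-chain partner, was at 0 counts in all 10 libraries, which allows up to 3 counts in each; as background, the MHC haplotype of C57BL/6 mice carries a deletion in the H2-Ea promoter.

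Cd74, the invariant chain, was the most abundant of the 7 genes. It stood at 55.2, 112 and 111 normalized counts in control, 113 and 82.4 in Nrf2 KO, 2146 and 1603 in p65 KO, and 944, 811 and 410 in DKO. Again the p65 KO, DKO and control libraries did not overlap. Its level was 20.0-fold that of control in p65 KO (log2 fold change 4.33, standard error 0.37, adjusted p = 0.000527) and 7.72-fold in DKO (log2 fold change 2.95, standard error 0.34, adjusted p = 0.00133). The chains kept pace with it: the summed counts of H2-Aa, H2-Ab1 and H2-Eb1 were 0.824 to 1.28 times those of Cd74 in control, 0.804 and 0.816 times in Nrf2 KO, 1.07 and 1.18 times in p65 KO, and 0.914 to 1.23 times in DKO. Cd74 gave 42.1% to 52.6% of the 7 genes' counts over all 10 libraries.

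The peptide-loading genes were lower than the chains, also per length of transcript. H2-DMa stood at 9.94, 2.95 and 5.60 normalized counts in control, 9.89 and 3.23 in Nrf2 KO, 75.2 and 66.2 in p65 KO, and 27.4, 53.9 and 20.6 in DKO, with no overlap between p65 KO, DKO and control. It rose by 3.51 in p65 KO (standard error 0.62, adjusted p = 0.00633) and by 2.45 in DKO (standard error 0.59, adjusted p = 0.0375), both on the log2 scale. The DKO call for H2-DMa was lost when any of 7 single libraries was left out: any of the 3 control libraries, either p65 KO library, or DKO replicate 1 or 2, with adjusted p from 0.0617 to 0.114, and in a fit of these genotypes alone (0.0779).

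H2-DMb1 had 3, 8 and 10 counts in control, 6 and 4 in Nrf2 KO, 96 and 82 in p65 KO, and 57, 25 and 8 in DKO. DKO replicate 3 overlapped with control, and the other 2 DKO libraries were above all control libraries. The rise in p65 KO was 3.64 on the log2 scale (standard error 0.69, adjusted p = 0.00846), and it missed the threshold without p65 KO replicate 1 (3.46, adjusted p = 0.0591). In DKO the log2 fold change of H2-DMb1 was 2.21 (95% interval 0.77 to 3.66, adjusted p = 0.0782), which did not pass; without DKO replicate 3 it was 2.65 (adjusted p = 0.0236), which did. H2-DMb1 shares 37.6% of its 31-base words with the neighbouring copy H2-DMb2, so reads can be divided between them, but H2-DMb2 held at most 4 counts in any library, and adding its counts to those of H2-DMb1 changed no call.

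Ciita, the coactivator, was near the limit of detection outside the p65 KO. It had 1, 0 and 3 counts in control, 3 and 2 in Nrf2 KO, 49 and 33 in p65 KO, and 8, 9 and 6 in DKO. Every DKO library was above every control library, and both p65 KO libraries were above every DKO library. Against 3 counts in each control library, its level was at least 13.4-fold higher in p65 KO and at least 2.80-fold higher in DKO. These bounds were not tested themselves. The edgeR test of the fitted change passed in p65 KO (adjusted p = 0.00502) and did not pass in DKO (adjusted p = 0.0929). No fold is given between Nrf2 KO and control, which were both at 3 counts or fewer.

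Per length of transcript the order of the genes was the same in p65 KO and DKO except for near ties. Cd74 led in p65 KO with 1310 ± 268 normalized counts per kilobase (SD, n = 2), followed by H2-Aa with 779 ± 117, H2-Ab1 with 548 ± 71.4 and H2-Eb1 with 325 ± 37.8. H2-DMb1 (62.3 ± 10.1) and H2-DMa (61.4 ± 5.54) did not differ beyond their spread, and Ciita was lowest at 5.41 ± 1.76. In control, Cd74 led with 64.9 ± 22.8 normalized counts per kilobase (SD, n = 3), while H2-Aa (30.0 ± 16.3), H2-Ab1 (25.7 ± 13.1) and H2-Eb1 (17.4 ± 7.87) lay within each other's spread. DKO levels of H2-Ab1 (223 ± 82.2) and H2-Aa (222 ± 90.0) were nearly equal.

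**Figure D2:**
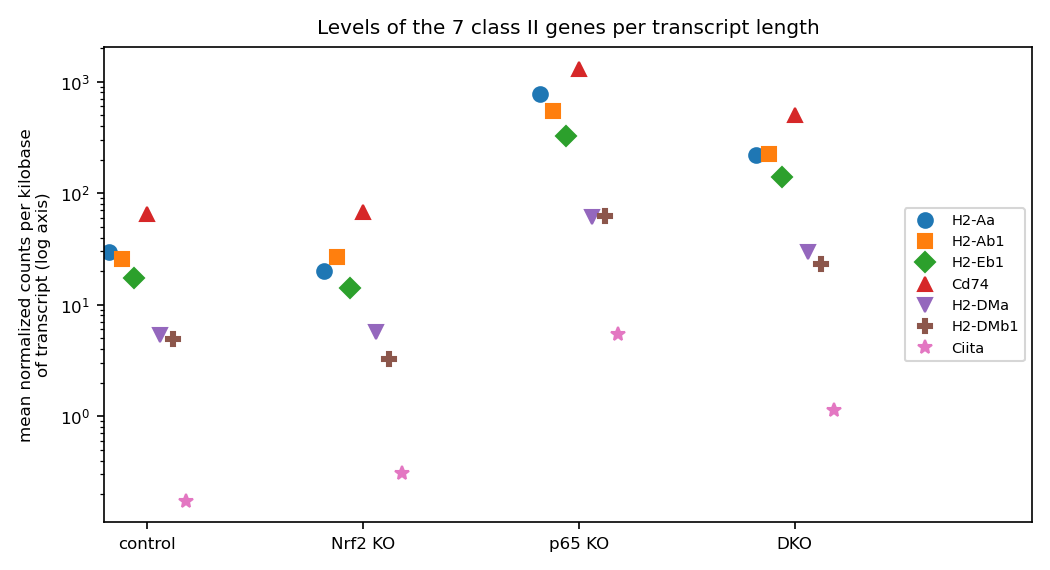
Mean normalized counts per kilobase of the canonical transcript (log axis) of the 7 class II genes in each genotype, with each gene shifted sideways for legibility. In every genotype Cd74 is highest and Ciita lowest, and H2-DMa and H2-DMb1 lie close together between the chains and Ciita; Ciita in control and Nrf2 KO rests on 0 to 3 counts per library.

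Counted together, all 7 class II genes rose in p65 KO relative to control, where 5.05% of all tested genes were called higher and 1.54% lower. Their median log2 fold change was 4.33, or 4.20 with Ciita at its bound, beside 0.00 over all tested genes, and all 7 had both p65 KO libraries above every control library, against 26.2% of all genes. A call here required that the p adjusted over all tested genes be 0.05 or less and that the level differ by 1 or more on the log2 scale. In DKO 5 of the 7 were called higher, against 1.36% of all genes called higher and 1.02% lower, with a median log2 fold change of 2.87, and 6 of the 7 had all DKO libraries above all control libraries, against 13.2% of all genes. H2-DMb1 and Ciita were the genes not called in DKO. These p-values measure the spread between the mice sampled, 2 or 3 in each genotype.

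In Nrf2 KO relative to control, none of the 7 was called by edgeR or by DESeq2, and none had an unadjusted p under 0.05 in edgeR; 0.11% of all genes were called higher and 0.44% lower. The log2 fold changes of the 6 genes with a measurable fold lay between -0.62 for H2-Aa (95% interval -1.83 to 0.59) and 0.07 for H2-DMa (95% interval -1.51 to 1.65). For Cd74, the best measured, the value was 0.06 with a 95% interval of -0.80 to 0.91, so these libraries do not show equal levels. Nrf2 KO and control libraries overlapped for all 7 genes. Most tested genes overlapped too: 14.8% had every Nrf2 KO library above every control library, and 13.6% had every one below.

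DKO libraries held less class II RNA than p65 KO libraries. For all 7 genes every DKO library was below both p65 KO libraries, against 20.1% of all genes below and 18.5% above, and the median log2 difference was -1.38. H2-Aa fell by 1.81 on the log2 scale (standard error 0.39, adjusted p = 0.0337) and Cd74 fell by 1.38 (standard error 0.33, adjusted p = 0.0432); these were the 2 genes called, against 0.968% of all genes called lower and 0.814% higher. The other log2 differences were -1.30 for H2-Ab1 (adjusted p = 0.0587), -1.22 for H2-Eb1 (0.0929), -1.06 for H2-DMa (0.289), -1.42 for H2-DMb1 (0.210) and -2.24 for Ciita (0.0914). Both calls were lost without either p65 KO library or without DKO replicate 1 and in a fit of these genotypes alone (adjusted p = 0.0512 for H2-Aa and 0.0889 for Cd74), whereas DESeq2 and scaling by library totals each called 5 genes. Cd74 also missed the threshold without any other single library except control replicate 1 (adjusted p from 0.0552 to 0.0595).

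For all 7 genes every DKO library was above both Nrf2 KO libraries, against 15.8% of all genes. In this comparison 4 of the 7 genes were called higher in DKO, against 0.293% of all genes: H2-Aa (log2 fold change 3.49, adjusted p = 0.0138), H2-Ab1 (3.05, 0.0111), H2-Eb1 (3.30, 0.0132) and Cd74 (2.89, 0.0102). None of the 4 passed without either Nrf2 KO library, with adjusted p from 0.0819 to 0.169, where the remaining single library was taken to vary like the other genotypes. In a fit of these genotypes alone H2-Aa and H2-Eb1 missed the threshold (adjusted p = 0.0582 for each), whereas DESeq2 called 6 genes, adding H2-DMa (adjusted p = 0.0253) and H2-DMb1 (0.0199). Whether loss of Nrf2 acted differently with and without p65 was tested as an interaction. No class II gene passed it in edgeR or DESeq2, with 0.191% of all genes called negative and 0.264% positive; 3 genes had an unadjusted p under 0.05 in edgeR, and the estimate for Cd74 was -1.43 on the log2 scale (95% interval -2.55 to -0.32, adjusted p = 0.257).

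The libraries within a genotype also differed together. DKO replicate 3 was the lowest of its group for 7 of the 7 genes, Nrf2 KO replicate 2 was the lower of its pair for 7, and p65 KO replicate 1 was the higher of its pair for 7. Control replicate 1 was lowest for 5 genes. The macrophage markers shared part of this order. Csf1r, the receptor for the macrophage growth factor CSF1, stood at 28.7, 152 and 85.0 normalized counts in control, 107 and 44.5 in Nrf2 KO, 751 and 587 in p65 KO, and 370, 247 and 187 in DKO. Clec4f, a lectin found on Kupffer cells, stood at 77.3, 211 and 176 in control, 195 and 48.5 in Nrf2 KO, 1127 and 848 in p65 KO, and 611, 365 and 302 in DKO. DKO replicate 3 and Nrf2 KO replicate 2 were the lowest of their groups for both markers as well, but DKO replicate 1, highest for both markers, was highest for only 2 class II genes, and DKO replicate 2 for the other 5.

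Set beside Csf1r and Clec4f, the class II genes had larger fitted increases in p65 KO. Csf1r rose by 2.90 on the log2 scale in p65 KO (standard error 0.52, adjusted p = 0.00654) and Clec4f by 2.67 (standard error 0.50, adjusted p = 0.00840), while the class II genes ranged from 3.51 for H2-DMa to 4.68 for H2-Aa, with Ciita at 3.74 or more. Both marker calls missed the threshold without p65 KO replicate 1 (adjusted p = 0.0512 for Csf1r and 0.0624 for Clec4f). In DKO, Csf1r (log2 fold change 1.59, adjusted p = 0.0855) and Clec4f (1.46, adjusted p = 0.0982) did not pass, whereas H2-Aa, H2-Ab1, H2-Eb1 and Cd74 ranged from 2.87 to 3.10, H2-DMa was 2.45 and H2-DMb1 2.21; the bound for Ciita, 1.49, was below the value of Csf1r. Markers of other kinds reached the lower class II values in p65 KO, among them the Kupffer cell gene Marco (3.62) and the stellate cell gene Dcn (3.63), both above H2-DMa. In DKO, Marco (2.21) reached the value of H2-DMb1. Cd22, Pdgfrb, Ccr2 and Itgax, each at 3 counts or fewer in every control library, had fitted values of 4.45 (Itgax) to 6.32 (Cd22) in p65 KO. These depend on the few control counts. All these genes were picked after their values were seen. Over the 12 Kupffer cell markers the median was 2.87 in p65 KO and 1.69 in DKO. In Nrf2 KO the log2 fold changes of Csf1r and Clec4f were -0.25 and -0.37, and neither passed.

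**Figure D3:**
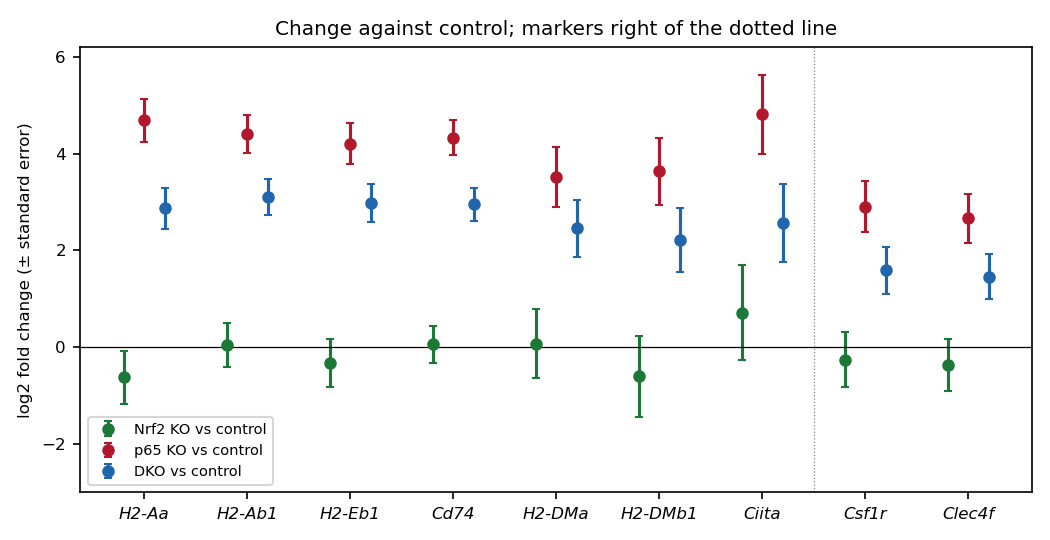
Log2 fold change against control of the 7 class II genes and, to the right of the dotted line, the macrophage markers Csf1r and Clec4f; error bars are standard errors from the edgeR fit, and the fitted values of Ciita depend on control libraries with 0 to 3 counts. Values for p65 KO run from 3.51 to 4.81 for the class II genes and from 2.67 to 2.90 for the markers.

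The difference itself was measured as a ratio within each library. The summed counts of the 7 class II genes were 4.12, 1.75 and 2.59 times those of Csf1r in control, 2.09 and 3.53 times in Nrf2 KO, 6.21 and 6.26 times in p65 KO, and 5.14, 7.69 and 4.60 times in DKO. The p65 KO and DKO ratios were all above those of control and Nrf2 KO. Averaged on the log2 scale, the ratio was 2.35-fold that of control in p65 KO (exact 2-sided permutation test, p = 0.2) and 2.13-fold in DKO (exact permutation p = 0.1). The smallest p that these group sizes allow is 0.1, so no ratio could pass a threshold of 0.05.

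Relative to Clec4f, the summed class II counts were 1.53, 1.26 and 1.26 times in control, 1.15 and 3.23 times in Nrf2 KO, 4.14 and 4.33 times in p65 KO, and 3.11, 5.20 and 2.84 times in DKO. Here Nrf2 KO replicate 2, the library with the fewest Clec4f counts, overlapped with DKO. The mean ratio was 3.15-fold that of control in p65 KO and 2.67-fold in DKO (exact permutation p = 0.1 for each). Against the summed 12 Kupffer cell markers the class II genes were 2.62-fold higher in p65 KO and 2.25-fold higher in DKO, and against the summed 5 leukocyte markers 2.92-fold and 2.57-fold higher (exact permutation p = 0.1 for each). Between DKO and p65 KO the ratios were close: 0.908-fold relative to Csf1r (exact permutation p = 0.7) and 0.846-fold relative to Clec4f (exact permutation p = 0.5). A total of 45 ratio comparisons were made, and the lowest Benjamini-Hochberg adjusted value was 0.346 (exact permutation tests). In bulk RNA, more cells of a type and more class II RNA per cell cannot be told apart.

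**Figure D4:**
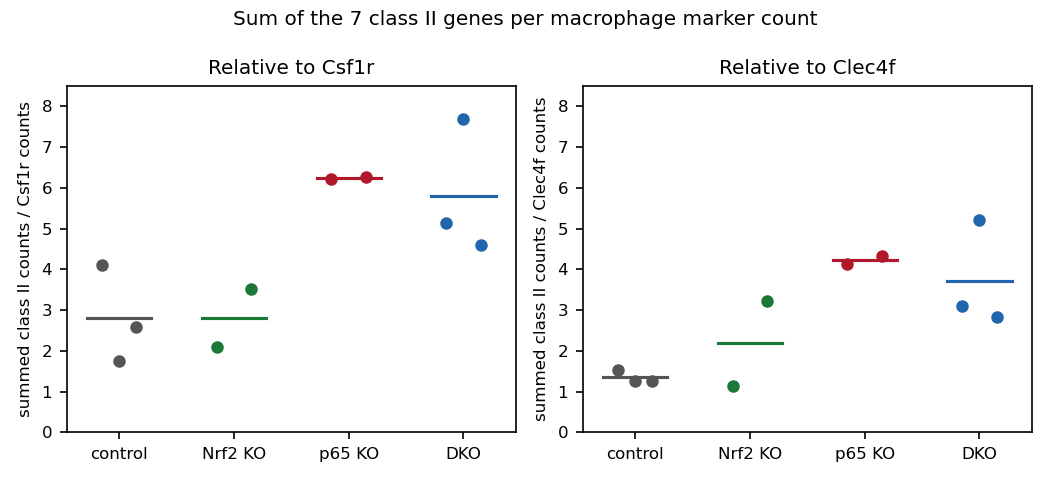
Summed counts of the 7 class II genes divided by the counts of Csf1r (left) or Clec4f (right), on linear axes from 0, with 1 point per mouse and a bar at the arithmetic mean of each genotype. Relative to Csf1r, both p65 KO points (6.21 and 6.26) and all DKO points (4.60 to 7.69) lie above the highest control point (4.12); relative to Clec4f, 1 Nrf2 KO point (3.23) lies among the DKO points.

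Markers of several non-hepatocyte cells moved with the class II genes. Over all tested genes, 5.05% were called higher in p65 KO and 1.36% in DKO. Of the 12 Kupffer cell markers, 12 were called higher in p65 KO, with summed levels of 4516 and 6190 normalized counts against 368 to 957 in control. In DKO 6 were called higher (Cd5l, Marco, C1qa, C1qb, C1qc and Cd163), with sums of 1715 to 2905. Each of the 12 had all DKO libraries above all control libraries, against 13.2% of all genes. All 5 leukocyte markers were called higher in p65 KO (523 and 853 against 66.3 to 159) and Fcer1g alone was called in DKO (187 to 333). All 8 sinusoidal endothelial markers were called higher in p65 KO (3297 and 4300 against 628 to 1389), with Lyve1 called in DKO (1784 to 2418). Of the 6 stellate cell markers, 5 were called higher in p65 KO (1589 and 1610 against 145 to 351), with Dcn called in DKO (280 to 732). In Nrf2 KO no gene of these lists was called. The part of these cells in the class II values was not tested.

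Other antigen-presenting and blood cells gave few counts. Of the dendritic cell markers, Itgax rose in p65 KO, with 24 and 26 counts against 0, 3 and 0 in control, and stood at 4, 14 and 3 in DKO; Flt3, Xcr1, Cd209a and Ccr7 held at most 6 counts in any library, and Zbtb46, with 145 and 136 counts in p65 KO against 82 to 178 in control, overlapped there and was below every control library in DKO (40, 53 and 56 counts, log2 fold change -1.09, adjusted p = 0.0637). Of the B cell markers, Cd22 rose in p65 KO (12 and 8 counts) and DKO (4, 5 and 39) from 0 in every control library; Ms4a1 and Pax5 held at most 5 counts in any library, and Blk none. Among monocyte markers, Lyz2 rose in p65 KO (log2 fold change 2.14) and DKO (1.40), and Ccr2 in p65 KO, with 26 and 7 counts against 0, 1 and 0. Of the T and NK cell markers, Cd4 alone was called, higher in DKO (log2 fold change 1.96), with 132, 67 and 56 counts against 21, 35 and 15 in control; it had 63 and 72 counts in Nrf2 KO, where it did not pass, and 17 and 24 in p65 KO. Cd3d, Cd3e, Cd3g and Cd8a held at most 9 counts in any library. No neutrophil or cholangiocyte marker was called in any comparison with control. In the comparisons with control, Tat was the only hepatocyte marker of 9 called, higher in DKO (1.62); between DKO and p65 KO, Tat (1.89) was called higher and Cyp2e1 (-1.06) lower in DKO. The part of these cells in the class II values was not tested either.

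Of 13 further genes of class II loading and processing, 10 had enough counts to be tested. Of these, 2 were called higher in p65 KO, against 5.05% of all genes, and 1 in DKO, against 1.36%. Ctss, the cysteine protease that trims the invariant chain in antigen-presenting cells, stood at 33.1, 55.1 and 35.5 normalized counts in control, 45.5 and 21.8 in Nrf2 KO, 456 and 397 in p65 KO, and 196, 166 and 119 in DKO. It followed the same order of genotypes as the class II genes, with log2 fold changes of 3.36 in p65 KO (adjusted p = 0.000636) and 1.95 in DKO (adjusted p = 0.00586), and was lower in DKO than in p65 KO by a log2 difference of -1.41 (adjusted p = 0.0320). Marchf1, a ubiquitin ligase that removes class II molecules from the surface of antigen-presenting cells, rose in p65 KO (log2 fold change 2.60, adjusted p = 0.0488) from 2, 7 and 5 counts in control to 35 and 23.

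None of the abundant lysosomal genes was called higher. Lgmn, an asparaginyl endopeptidase, had the same order of genotypes as the class II genes, with smaller differences. It stood at 598 to 658 normalized counts in control, 719 to 812 in DKO and 982 to 1180 in p65 KO. In p65 KO it had an adjusted p of 0.00361 (edgeR) with a log2 fold change of 0.77, under the fold threshold. Its DKO value of 0.29 did not pass (adjusted p = 0.146, edgeR). Log2 fold changes in p65 KO were 0.29 for Ifi30, the lysosomal thiol reductase, -0.11 for Ctsl, 0.09 for Ctsb and 0.06 for Ctsd, which encode cathepsins, and -0.07 for the ubiquitin ligase Marchf8; none of these passed in p65 KO or DKO. The chaperone gene H2-Ob had 11 and 4 counts in p65 KO and at most 7 elsewhere, and H2-Oa, H2-Eb2 and H2-DMb2 had at most 4 counts in any library.

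Of 9 regulators of class II transcription, 2 were called higher and 1 lower in p65 KO, where 5.05% of all genes were called higher and 1.54% lower. Irf8, a transcription factor of macrophages and dendritic cells, stood at 32.0, 39.3 and 22.4 normalized counts in control, 165 and 122 in p65 KO, and 91.5, 78.5 and 52.6 in DKO (log2 fold changes 2.19, adjusted p = 0.00369, and 1.25, adjusted p = 0.0480). Spi1, which encodes the myeloid factor PU.1, rose in p65 KO (3.07, adjusted p = 0.00833) from 3, 7 and 8 counts to 52 and 52. Rfxank, a subunit of the RFX complex that binds the X box, fell by 1.68 on the log2 scale in p65 KO (adjusted p = 0.00978), from 803, 882 and 641 normalized counts in control to 319 and 164; the DKO libraries stood at 500, 500 and 281 (log2 fold change -0.86, adjusted p = 0.10). Whether the fall of Rfxank bears on the class II genes was not tested. The other RFX subunits Rfx5 (log2 fold change -0.16 in p65 KO) and Rfxap (-0.35), the NF-Y subunits Nfya (0.25), Nfyb (-0.26) and Nfyc (-0.15), and Creb1 (0.14) did not pass in p65 KO or DKO.

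Ifng, the gene of interferon gamma, the classical inducer of Ciita, had 0 counts in all 10 libraries. Irf1, a transcription factor of its signalling, stood at 620, 628 and 819 normalized counts in control and at 1334 and 1809 in p65 KO, without overlap. It rose by 1.19 on the log2 scale in p65 KO (adjusted p = 0.00336) and did not pass in DKO (log2 fold change 0.47, adjusted p = 0.124). Of 6 costimulation genes, Cd274, which encodes the inhibitory ligand PD-L1, rose in p65 KO (log2 fold change 2.31, adjusted p = 0.00177), from 26.5, 36.4 and 27.1 normalized counts in control to 156 and 143, and was lower in DKO than in p65 KO by a log2 difference of -1.73 (adjusted p = 0.0150). Like H2-DMb1 and unlike the other class II genes, Cd274 in DKO, at 44.2, 55.0 and 35.5, overlapped with control.

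The genes whose pattern over the 10 libraries was most like the mean of the 7 were sought among the 10181 tested genes that averaged 50 normalized counts or more. The 10 highest Pearson correlations of log2 normalized counts belonged to Cybb (0.989), Ctss (0.983), Dnase1l3 (0.976), C1qc (0.972), Tmsb4x (0.969), Clec14a (0.968), Cd5l (0.966), Tspan7 (0.965), C1qa (0.964) and Sdc3 (0.963). All 10 were called higher in p65 KO, and all except Clec14a (adjusted p = 0.0655) in DKO, against 5.05% and 1.36% of all genes. These genes were picked for likeness to genes that are higher in p65 KO and DKO. Their calls follow from that choice and are no separate evidence. Cybb, the catalytic subunit of the phagocyte oxidase, rose by 3.81 on the log2 scale in p65 KO and by 2.02 in DKO. These correlations describe 10 points that share genotype, preparation and depth, and the genotypes form separate groups of points, so they carry no test.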

How the data were processed

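Poly-A RNA of isolated hepatocytes of 10 mice was sequenced from stranded libraries (single-end, 1 library per mouse). The authors estimated counts per gene with Salmon 1.10.3 on GRCm39 with GENCODE M33, at a forward strand setting where this kit usually gives reverse-strand reads (its effect on the counts was not tested), and used DESeq2 1.42.1 (versions per the submitters' processing notes and methods). The deposited estimated counts are whole numbers in a table named as normalized; their totals and median-ratio size factors differ between libraries, so they were treated as unscaled expected counts. Of 21939 genes, 6302 were at 0 in every library, and 13641 with at least 10 counts in sum were tested.

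One edgeR 4.0.16 quasi-likelihood model (R 4.3.3, TMM scaling) of the 4 genotypes gave all comparisons, with Benjamini-Hochberg adjustment over all tested genes. Calls needed an adjusted p of at most 0.05 and an absolute log2 fold change of at least 1. The methods of the study used DESeq2, run here as an alternative (DESeq2 1.42.0). Fold changes against groups with at most 3 counts in every library are given as bounds against 3 counts per library, or as fitted values where so named. Names, positions and canonical transcript lengths came from GENCODE M39 on the same build, matching 21926 identifiers; promoter sequences came from RefSeq on GRCm38.p6. Library ratios were compared by exact 2-sided permutation tests, and plots were drawn in matplotlib 3.10.9. The scripts were tested on simulated counts.

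Named genes were the 7 genes, Csf1r, Clec4f, Nfe2l2 and Rela, the genes of class II loading and control, called genes of the other lists, and the 10 most alike genes; other marker genes named with counts, such as Flt3 and Zbtb46, were chosen after their values were seen. Some genes of the lists are not reported here. The 7 genes and the lists were chosen with earlier results of these data known. Groups came from the labels; alternatives were other scalings, filters, tools, blocks and single libraries left out. Precision is limited by 2 or 3 mice per genotype and, for Ciita, H2-DMa and H2-DMb1, by counts of 10 or fewer in control.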

Additional observations from a re-analysis of the deposited data

How the results depend on the processing

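The counts of class II genes called in p65 KO against control (7), DKO against control (5), Nrf2 KO against control (0) and the interaction (0) stayed within 1.5 times of these values under every alternative run: DESeq2, library totals, upper-quartile scaling, no filter, a mean of 10 counts, the replicate block, only the compared genotypes (not run for the interaction), H2-DMb1 and H2-DMb2 summed, and single libraries left out (6 to 7, 4 to 6, 0 to 0 and 0 to 0). DKO against p65 KO called 2 genes and moved to 5 with DESeq2, 5 with library totals, 0 with the replicate block and 0 with only the compared genotypes, and ranged from 0 to 3 with single libraries left out. Scaling by library totals shifted the median of all genes to -0.27 (log2) in that comparison. DKO against Nrf2 KO called 4 genes, 6 with DESeq2, 2 with only the compared genotypes and 0 to 4 with single libraries left out. No log2 fold change of a class II gene or marker that had been called changed direction. The replicate numbers were not taken to pair the mice. Of 13 same-number pairs, 1 had a correlation of deviations over 0.1 (range -0.232 to 0.113). In a genotype with 2 mice the deviations of the libraries mirror each other, so this check cannot exclude pairing. The replicate block called 7 genes in p65 KO and 4 in DKO against control. The log2 ratio of summed class II genes to Clec4f in p65 KO against control was 1.66, and 1.39 with the Kupffer cell list as denominator; with single libraries left out it ranged from 1.61 to 1.75 (to Csf1r, 0.93 to 1.55), and in DKO from 1.15 to 1.58 (to Csf1r, 0.79 to 1.41). The ratios to Csf1r and Clec4f in Nrf2 KO against control ranged from -0.34 to 0.41 and from -0.23 to 1.27, in DKO against Nrf2 KO from 0.68 to 1.44 and from 0.15 to 1.64, and in DKO against p65 KO from -0.36 to 0.01 and from -0.51 to -0.07. The causes of these changes were not tested.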
